A study of Homo sapiens with 90 samples.

Results

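BNIP3L, TMEM45A and 8 further genes that respond to low oxygen were followed in HepG2, a cell line from a human liver tumour, after exposure to 3 pesticides. The list held BNIP3L, BNIP3, TMEM45A, CA9, VEGFA, ADM, NDRG1, EGLN3, ANKRD37 and PFKFB4, and every probe set of these genes with a single gene symbol in the array's probe annotation was taken. That gave 17 of 40914 such probe sets and 9 of 19774 genes, while CA9 was not analysed here. BNIP3L was chosen by its lower level on the imazalil arrays at 10 µM, and how TMEM45A was chosen is not stated, so it was treated as chosen by its values in these data too. Their values against DMSO are given as a description with no test. The other genes were listed for their known response to hypoxia-inducible factors. That choice was also made with earlier results of these data known, so their tests may not be independent of it.

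Imazalil, an imidazole fungicide, fenbuconazole, a triazole fungicide, and 2,4-D, a chlorophenoxy herbicide, were each given for 24 h at 9 doses between 0.001 and 10 µM, with 3 replicate arrays per dose. The reference was 3 arrays of cells given DMSO, the vehicle, which were common to the compounds and were normalized anew with each compound's 27 treated arrays. The labels name no sample held at low oxygen, and oxygen and HIF protein were not measured in these data. Values are log2 array intensities, and a difference of 1 is a doubling.

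Hypoxia-inducible factors (HIFs) pair an alpha subunit, HIF1A or EPAS1, with ARNT and bind short DNA elements near the genes they switch on. While oxygen is plentiful, EGLN prolyl hydroxylases mark the alpha subunit and VHL sends it for degradation, so HIF targets stay low. The targets serve mitophagy (BNIP3 and BNIP3L), pH balance (CA9), vessel growth and tone (VEGFA and ADM), glycolysis (PFKFB4) and feedback on the sensor itself (EGLN3).

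The promoters of the genes were searched for the short core sequences of HIF elements. RefSeq promoters of GRCh38.p14, from 250 bases before to 50 bases after the start site, matched 7 of the 10 genes. BNIP3L, VEGFA and NDRG1 were not among them. ACGTG and GCGTG were searched on both strands, and the palindrome CACGTG counts as a pair of overlapping ACGTG matches. Of all 35116 promoters searched, 48.4% held at least 1 match and 23.1% at least 2, against 5 and 2 of the 7 genes. The 7 genes were not tested against that background, and the matches are a description. BNIP3 held 6 matches, at positions -143 to -104 from the start site (chr10:131981874-131982173, minus strand), ANKRD37 held 3 (chr4:185396591-185396890, plus strand), and PFKFB4, ADM and CA9 held 1 each. TMEM45A (chr3:100492369-100492668, plus strand) and EGLN3 held 0 in this window, which says nothing of elements elsewhere. The promoters with the most matches and that of TMEM45A are printed 5′ to 3′ on the strand of the gene, with matches in capitals.
BNIP3: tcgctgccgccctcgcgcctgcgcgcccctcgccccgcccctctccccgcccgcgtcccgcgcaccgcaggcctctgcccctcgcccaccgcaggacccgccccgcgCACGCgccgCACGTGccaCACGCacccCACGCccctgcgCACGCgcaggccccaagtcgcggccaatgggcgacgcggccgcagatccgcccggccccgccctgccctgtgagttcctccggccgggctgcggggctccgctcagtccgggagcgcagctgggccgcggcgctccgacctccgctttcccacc
ANKRD37: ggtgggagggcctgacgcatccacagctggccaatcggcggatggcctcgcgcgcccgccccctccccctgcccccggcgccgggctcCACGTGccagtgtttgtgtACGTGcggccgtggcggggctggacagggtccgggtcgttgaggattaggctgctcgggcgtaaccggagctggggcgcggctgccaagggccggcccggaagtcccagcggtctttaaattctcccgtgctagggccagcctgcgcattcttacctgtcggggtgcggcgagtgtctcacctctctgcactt
TMEM45A: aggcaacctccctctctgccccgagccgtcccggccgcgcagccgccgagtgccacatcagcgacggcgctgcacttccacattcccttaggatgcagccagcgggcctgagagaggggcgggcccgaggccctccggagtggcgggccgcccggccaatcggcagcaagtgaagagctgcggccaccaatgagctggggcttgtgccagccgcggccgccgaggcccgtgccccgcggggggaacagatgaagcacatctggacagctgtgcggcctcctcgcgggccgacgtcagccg

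Array medians lay between 2.95 and 3.15, so a level near 3 is that of a dim probe set. The 8 measured hepatocyte markers averaged 10.07 to 13.10 on the DMSO arrays of the imazalil set, while mesenchymal markers reached at most 4.17 (COL1A1) and endothelial markers 3.64, and of the blood markers LYZ alone was bright (10.94). The mean level of each marker list overlapped between the 10 µM and DMSO arrays of every compound. The labels do not say whether the replicates were separate cultures, so p-values measure the spread between these arrays. The number that the labels give each array runs with dose within a replicate, so dose and array order cannot be told apart.

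BNIP3L, a mitophagy receptor of the outer mitochondrial membrane, was lower at the top dose of imazalil. Its level was 8.33, 8.33 and 8.13 on the 10 µM arrays, against 8.79, 8.72 and 8.79 on the DMSO arrays. The groups did not overlap, and the 10 µM arrays also lay below all 9 arrays of the 3 lowest doses, which ran between 8.66 and 9.11 with a median of 8.76. The difference from DMSO was -0.50 ± 0.10 (SE, 95% interval -0.70 to -0.30, 0.706-fold), and the difference from the 3 lowest doses was -0.53 ± 0.08. Among 19774 genes, 21 passed an adjusted p of 0.05 at 10 µM imazalil (0.106%), and BNIP3L was the 19th of them by p and the 4th in size of the 11 that were lower. This is the contrast that chose the gene, so the call is given as a description. Just inside the threshold after it stood CCN2 (-0.40) and KCNJ10 (0.43), and just outside SERPINA7 (-0.31) and SLC51B (0.77). The call was not stable. It held in 5 of 17 alternatives. Among others, it ended without any single one of the 3 DMSO or 3 imazalil arrays, with values between -0.43 and -0.54, and when every probe set was tested. The difference itself stayed between -0.56 and -0.39 in all 17 alternatives. Since RNA came from whole wells, fewer expressing cells and less RNA per cell cannot be told apart.

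In the imazalil dose series BNIP3L averaged 8.84 ± 0.23 at 0.001 µM, 8.74 ± 0.06 at 0.003 µM and 8.80 ± 0.11 at 0.01 µM (SD, n = 3 each). The next doses gave 8.75 ± 0.15 (0.03 µM), 8.71 ± 0.03 (0.1 µM) and 8.71 ± 0.05 (0.3 µM). The top of the series gave 8.66 ± 0.14 (1 µM), 8.55 ± 0.08 (3 µM) and 8.26 ± 0.12 (10 µM). Neighbouring doses up to 1 µM overlapped in their spread. The step to 10 µM was larger than the spread on either side of it, since the highest 10 µM array (8.33) lay below the lowest 3 µM array (8.45). At 3 µM the arrays read 8.60, 8.58 and 8.45, below all 9 arrays of the 3 lowest doses. That contrast shares no array with the comparison that chose BNIP3L, and it gave -0.25 ± 0.08 (limma, adjusted p = 0.709 over all genes), against a background of 1 of 19774 genes called (0.00506%). The slope over 0.001 to 3 µM was -0.067 ± 0.020 log2 per 10-fold dose (adjusted p = 0.446).

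BNIP3L lay nearer to DMSO at the top dose of the other compounds. The 10 µM arrays read 8.76, 8.87 and 8.46 with fenbuconazole, against 8.84, 8.71 and 8.81 with DMSO (-0.09 ± 0.09), and 9.04, 8.95 and 8.87 with 2,4-D, against 8.94, 8.88 and 8.95 with DMSO (0.03 ± 0.11). Of the fenbuconazole arrays, replicate 3 lay below the DMSO arrays, replicate 2 above them and replicate 1 among them, and the 2,4-D arrays spanned theirs. The difference between compounds at 10 µM was -0.41 for imazalil minus fenbuconazole (interval -0.61 to -0.22) and -0.53 for imazalil minus 2,4-D (-0.75 to -0.32), again as a description. At 3 µM, whose treated arrays did not choose the gene, imazalil minus fenbuconazole was -0.27 (-0.47 to -0.08, adjusted p = 0.949) and imazalil minus 2,4-D was -0.15 (-0.37 to 0.06), and neither passed. The DMSO columns enter both of these differences and those at 10 µM.

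A second, dimmer probe set of BNIP3L moved less. It read 7.78, 7.78 and 7.80 at 10 µM imazalil, against 8.26, 8.0 and 7.96 with DMSO, a difference of -0.28 ± 0.15 (interval -0.59 to 0.03). All 3 treated arrays lay below the DMSO arrays and below the 3 lowest doses, from which they differed by -0.42 ± 0.12. Over the 27 treated groups the pair of probe sets correlated at r = 0.71 (DMSO-centred means, a description). These groups include the 10 µM imazalil arrays, which chose the gene.

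**Figure D1:**
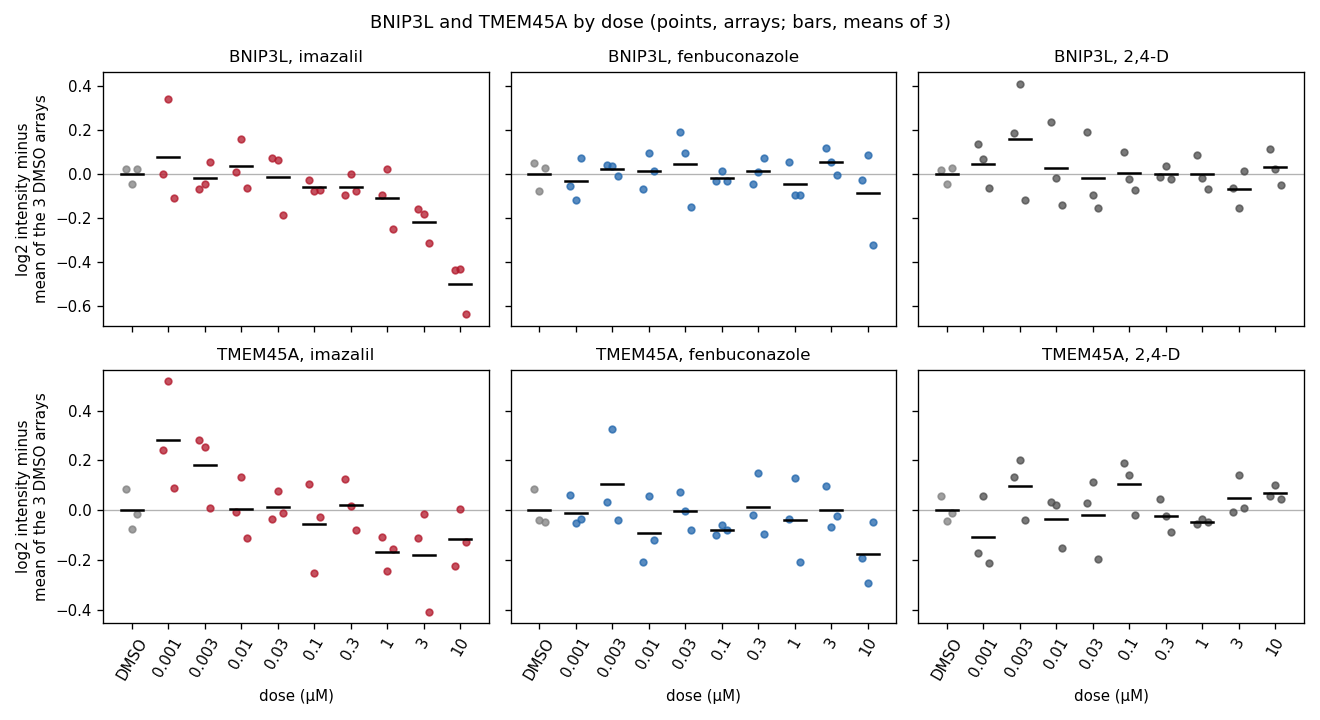
Log2 intensity minus the mean of the 3 DMSO arrays for BNIP3L (upper row) and TMEM45A (lower row) against dose in µM, with points for arrays, bars for means of 3, and panels for imazalil, fenbuconazole and 2,4-D. BNIP3L stands at -0.50 at 10 µM imazalil, and TMEM45A with imazalil stands highest at 0.001 µM and lower at 1 to 10 µM.

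BNIP3, the paralog of BNIP3L, had the most matches to the HIF core sequences among the 7 promoters of the list. It was the brightest of the 9 genes and changed little. Its 10 µM imazalil arrays read 10.14, 10.19 and 10.18, against 10.33, 10.25 and 10.21 with DMSO. The imazalil arrays all lay below the DMSO arrays, but the difference was small at -0.09 ± 0.10 (adjusted p = 0.941). Fenbuconazole gave -0.07 ± 0.13 and 2,4-D 0.02 ± 0.10. The other BNIP3 probe set gave -0.08 ± 0.10 with imazalil.

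TMEM45A, a transmembrane protein gene reported to respond to HIF and expressed in epithelia, had a different course from BNIP3L. The 10 µM imazalil arrays read 6.79, 7.02 and 6.88, overlapping the DMSO arrays at 7.10, 6.94 and 7.0, and the difference was -0.12 (interval -0.35 to 0.12). Against DMSO the low end of the series stood out instead. At 0.001 µM imazalil the level was 7.30 ± 0.22 (SD, n = 3) and at 0.003 µM 7.19 ± 0.15, against 7.01 ± 0.08 with DMSO, and it was 6.84 ± 0.07 at 1 µM, 6.83 ± 0.20 at 3 µM and 6.90 ± 0.12 at 10 µM. From 0.01 to 0.3 µM it lay between 6.96 and 7.03, near DMSO. The slope below 10 µM was -0.119 ± 0.025 log2 per 10-fold dose, the steepest of the 9 genes, and -0.101 without the 0.001 µM dose. With fenbuconazole the 10 µM arrays read 6.93, 6.83 and 7.08, against 7.21, 7.09 and 7.08 with DMSO (-0.18 ± 0.10), and with 2,4-D 7.29, 7.33 and 7.27, against 7.29, 7.19 and 7.22 (0.07 ± 0.08).

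None of the other 7 measured genes passed the threshold at 10 µM of any compound. With imazalil, 4 of the 7 lay below DMSO and 3 above, with a median of -0.05 beside -0.004 over all genes, and limma called 0 of them (1 at an unadjusted p under 0.05, lower, against 3.26% of all genes). With fenbuconazole, 2 lay below and 5 above (median 0.06), with 0 called, against 3 of 19774 genes (0.0152%), and 0 at an unadjusted p under 0.05. With 2,4-D, 3 lay below and 4 above (median 0.01), again with 0 and 0, and here limma called 0 of all genes (0%), with 372 lower and 411 higher at an unadjusted p under 0.05. The 95% intervals of the 9 genes reached 0.16 to 0.44 either side of the difference with imazalil, 0.19 to 0.41 with fenbuconazole and 0.16 to 0.30 with 2,4-D, so differences smaller than these could not be told from 0.

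**Figure D2:**
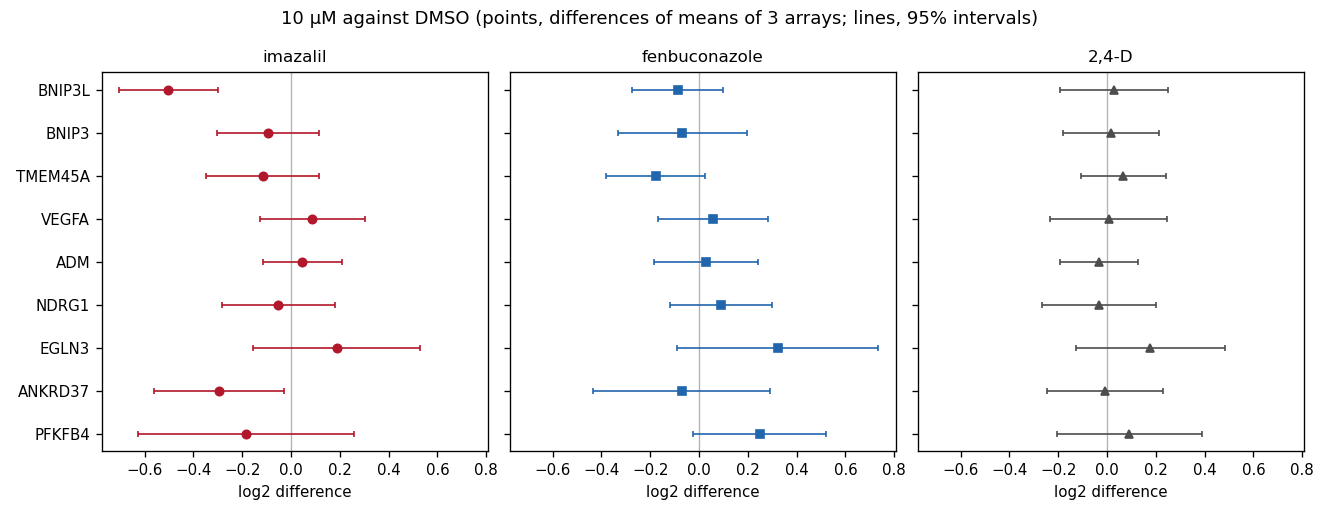
Log2 difference between the 10 µM and DMSO arrays for the 9 measured genes with each compound, with points for differences of means of 3 arrays and lines for 95% intervals. BNIP3L with imazalil is at -0.50, the intervals of the other genes with imazalil include 0 except that of ANKRD37, and all intervals with fenbuconazole and 2,4-D include 0.

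Of the secreted factors, VEGFA, the main angiogenic growth factor, and ADM, a peptide that widens vessels, sat close to DMSO at 10 µM. VEGFA read 8.52, 8.44 and 8.46 with imazalil, against 8.59, 8.34 and 8.22 with DMSO (0.09 ± 0.10). ADM read 7.25, 7.20 and 7.23, against 7.19, 7.30 and 7.05 (0.05 ± 0.08). Both overlapped with DMSO. The 3 dimmer VEGFA probe sets gave 0.12, 0.21 and -0.003 with imazalil and 0.30, 0.24 and 0.05 with fenbuconazole, and correlated with the brightest at r = -0.19, 0.49 and 0.19 over the 27 groups.

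NDRG1, a stress-response gene long used as a hypoxia marker, read 7.17, 7.23 and 7.12 at 10 µM imazalil, inside its DMSO range of 7.23, 7.44 and 7.0 (-0.05 ± 0.11). ANKRD37, an ankyrin repeat protein gene induced by HIF, had the lowest value of the 7 with imazalil. It read 5.56, 5.44 and 5.52, against 5.77, 6.06 and 5.57 with DMSO, with no overlap but nearest arrays that were close. The difference was -0.30 ± 0.13 (adjusted p = 0.794), while fenbuconazole gave -0.07 ± 0.18 and 2,4-D -0.01 ± 0.12. The other ANKRD37 probe set lay on the opposite side with imazalil (0.09 ± 0.11).

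EGLN3, a HIF prolyl hydroxylase that is itself a HIF target, was dim on most arrays, and its pair of probe sets lay on opposite sides of DMSO at 10 µM of each compound, although they correlated at r = 0.46 over the 27 groups. At 10 µM imazalil the brighter read 3.28, 3.24 and 3.18, against 3.17, 2.86 and 3.12 with DMSO (0.19 ± 0.17), and the dimmer gave -0.27 ± 0.12. No direction against DMSO can be given for this gene. PFKFB4, which sets the level of the glycolytic activator fructose 2,6-bisphosphate, read 5.74, 5.77 and 5.34 at 10 µM imazalil, against 5.83, 5.99 and 5.60 with DMSO (-0.18 ± 0.22), and 5.96, 6.24 and 6.02 at 10 µM fenbuconazole, against 5.91, 5.99 and 5.58 (0.25 ± 0.13).

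Set against the 3 lowest doses in place of DMSO, the 7 genes again gave 0 calls with each compound. For 10 µM imazalil, 3 of the 7 were lower at an unadjusted p under 0.05, against 3.37% of all genes, with 45 of 19774 genes called (0.228%). They were PFKFB4 (-0.53 ± 0.18, adjusted p = 0.435), whose 3 arrays at 10 µM lay below all 9 low-dose arrays, ANKRD37 (-0.35 ± 0.11, 0.308) and BNIP3 (-0.20 ± 0.08, 0.609). With fenbuconazole 0 of 7 were called, against 0.0607% of all genes, and 0 had an unadjusted p under 0.05. With 2,4-D 0 of 7 had an unadjusted p under 0.05 (0% of all genes called, with 294 lower and 562 higher at that unadjusted p). At 3 µM, imazalil had 2 of the 7 lower at an unadjusted p under 0.05, BNIP3 (-0.19 ± 0.08) and VEGFA (-0.19 ± 0.09), each with an adjusted p of 0.838, against 2.52% of all genes lower at that unadjusted p. At that dose fenbuconazole and 2,4-D had 0 of 7, and limma called 0 of all genes with either (0%), with 527 lower and 359 higher for fenbuconazole and 244 lower and 397 higher for 2,4-D at an unadjusted p under 0.05.

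With imazalil below 10 µM, most of the genes had slopes below 0, and none passed the adjustment. Slopes over the 24 arrays from 0.001 to 3 µM were lower at an unadjusted p under 0.05 for 5 of the 7 other genes, against 3.43% of all genes, and limma called 0 of the 7 (lowest adjusted p = 0.595) and 2 of 19774 genes (0.0101%). The 5 were PFKFB4 (-0.110 ± 0.048 log2 per 10-fold dose), ANKRD37 (-0.075 ± 0.029), NDRG1 (-0.066 ± 0.029), BNIP3 (-0.063 ± 0.023) and VEGFA (-0.056 ± 0.022), while ADM (0.010) and EGLN3 (0.015) had slopes above 0. The count rested on the lowest dose. Without the 0.001 µM arrays it was 1 of 7 (BNIP3, against 2.20% of all genes), and NDRG1 was then at 0.001. Without the replicate 2 array at 0.001 µM alone it was 1 of 7 (ANKRD37, against 3.08% of all genes). It was 1 without every replicate 1 array (against 2.09%) and 2 without every replicate 2 array (against 5.05%). Leaving out doses and this array was chosen after seeing the data.

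With fenbuconazole 1 of the 7 was lower at an unadjusted p under 0.05 (NDRG1, -0.050, against 4.66% of all genes), and with 2,4-D 1 (PFKFB4, -0.085, against 2.55%). No gene of the whole array passed the adjusted threshold for a slope with either compound (0%), with 922 lower and 675 higher at an unadjusted p under 0.05 for fenbuconazole and 505 and 678 for 2,4-D. Slopes were below 0 with all 3 compounds for 4 of the 9 genes (BNIP3, NDRG1, ANKRD37 and PFKFB4) and above 0 with all 3 for ADM. Some were close to 0, as for ANKRD37 with fenbuconazole (-0.006) and 2,4-D (-0.017). Of all genes, 54.1% had slopes below 0 with fenbuconazole, 48.4% with imazalil and 46.7% with 2,4-D. The share of all genes below 0 with all 3 was not counted. The 3 fits share no treated array, and agreement between them was not tested.

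**Figure D3:**
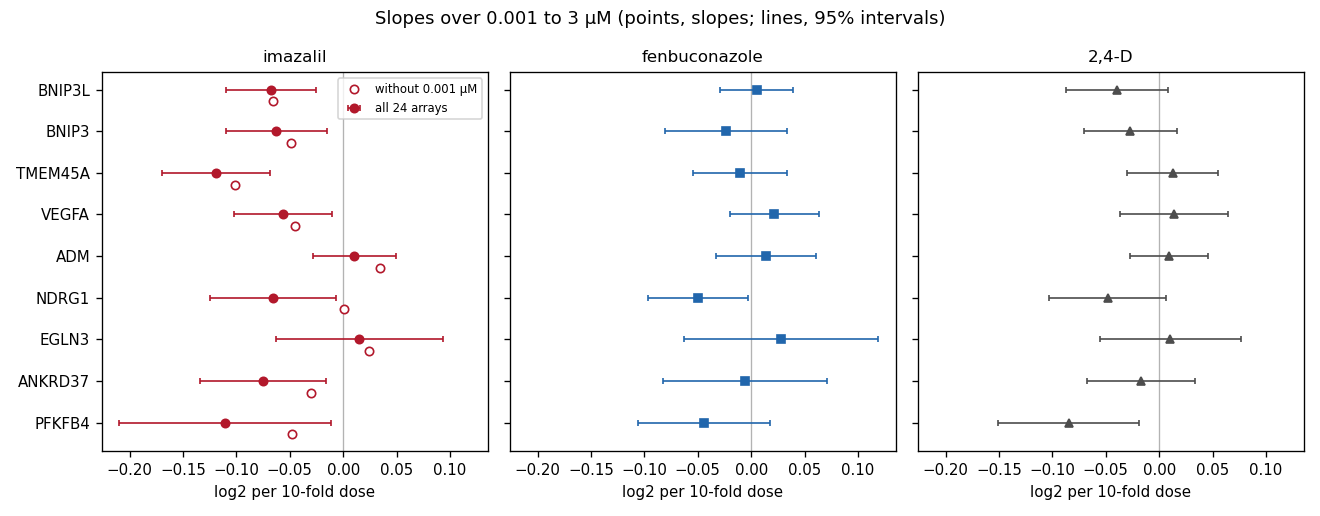
Slope of log2 intensity per 10-fold dose over 0.001 to 3 µM for the 9 measured genes with each compound, with filled symbols for all 24 arrays, lines for 95% intervals and open circles for imazalil without the 0.001 µM dose. With imazalil 7 slopes lie below 0 with intervals that exclude it, and the open circle of NDRG1 is at 0.001.

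At 0.001 µM imazalil all 9 genes lay above DMSO, with a median of 0.24 beside 0.0008 over all genes. Of all genes, 49.7% lay below DMSO there. Of the 7 genes other than BNIP3L and TMEM45A, 0 passed the adjustment. At an unadjusted p under 0.05, 2 of these 7 were higher, against 1.89% of all genes. PFKFB4 was highest, at 6.52, 6.91 and 5.83, against 5.83, 5.99 and 5.60 with DMSO (0.62 ± 0.22). The values were uneven between replicates. The number of genes above the DMSO mean was 8, 9 and 6 of 9 on the arrays of replicates 1, 2 and 3, with medians of 0.24, 0.34 and 0.05. At 0.003 µM 2,4-D, 8 of 9 genes lay above DMSO, where 52.9% of all genes lay below it. PFKFB4 read 6.59, 6.79 and 6.10 at that dose, against 6.06, 6.15 and 5.76 (0.51 ± 0.14). At 0.003 µM fenbuconazole PFKFB4 was at 0.45 ± 0.13.

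The mean of the 7 other genes on single arrays, which leaves out BNIP3L and TMEM45A, was highest on the replicate 2 array at 0.001 µM imazalil (0.38), then on replicate 2 at 0.003 µM 2,4-D (0.31) and replicate 1 at 0.001 µM imazalil (0.29). The 3 arrays at 0.001 µM imazalil lay between 0.10 and 0.38, above the 3 DMSO arrays of that set, which lay between -0.13 and 0.08. At the top of the imazalil series the arrays lay between -0.07 and -0.002 at 1 µM, -0.04 and 0.05 at 3 µM, and -0.10 and -0.01 at 10 µM, all inside the DMSO range. Over the 27 treated arrays of a set this mean correlated with the spread of the array's values, its interquartile range, at r = -0.12 with imazalil, 0.38 with 2,4-D and 0.12 with fenbuconazole, as a description over arrays that share a normalization. The part of array spread in these values was not tested beyond a covariate, which left 5 of the 7 imazalil slopes lower at an unadjusted p under 0.05.

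**Figure D4:**
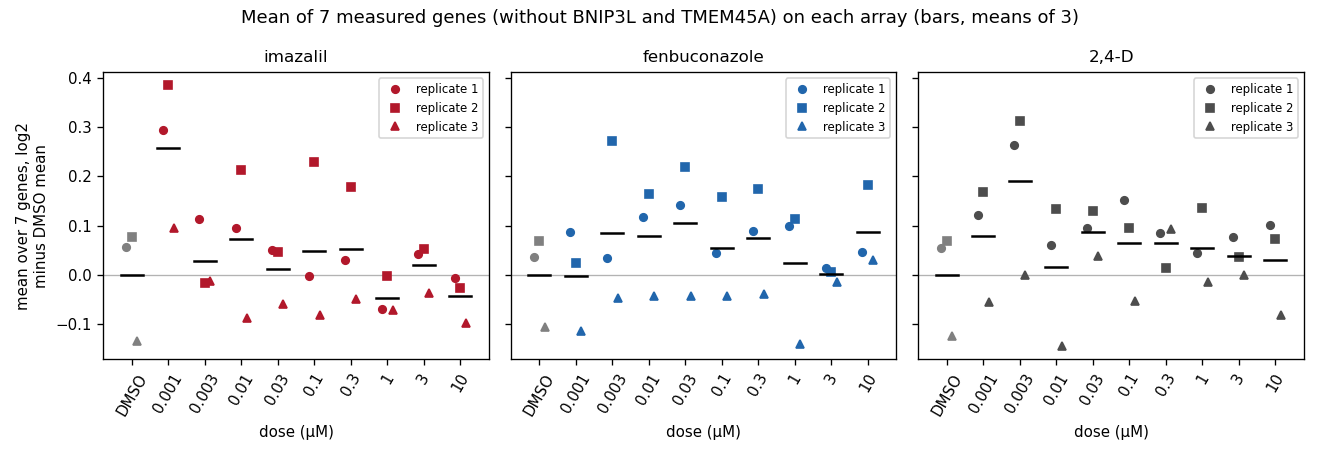
Mean over the 7 measured genes other than BNIP3L and TMEM45A of log2 intensity minus the DMSO mean, for each array against dose in µM, with symbols for replicate numbers and bars for means of 3. The replicate 2 array at 0.001 µM imazalil is highest at 0.38, and the 10 µM imazalil arrays, between -0.10 and -0.01, lie within the range of the DMSO arrays.

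Compared at the same dose, the compounds did not differ detectably in the 7 other genes. At 10 µM, 0 of 7 passed for imazalil minus fenbuconazole, where 0.0405% of all genes passed. For imazalil minus 2,4-D 0 passed (0.253% of all genes) and for fenbuconazole minus 2,4-D 0 (0.091%). At an unadjusted p under 0.05 the counts were 1, 1 and 0 of the 7. The shares above are of adjusted calls, and the share of all genes at the unadjusted p is not given. These counts therefore cannot be read as more than the background. The widest gap between the fungicides, which carry an imidazole and a triazole ring, was in PFKFB4 at -0.43 for imazalil minus fenbuconazole (interval -0.81 to -0.06, adjusted p = 0.440), followed by ANKRD37 at -0.22 (-0.54 to 0.09). VEGFA (0.03, interval -0.18 to 0.24) and ADM (0.02, -0.17 to 0.20) were close between them. At 3 µM, limma called 0 of 7 in each of the 3 pairs and 0 of 7 had an unadjusted p under 0.05, where the share of all genes called was 0% for imazalil minus fenbuconazole, with 370 lower and 606 higher at an unadjusted p under 0.05, 0.00506% for imazalil minus 2,4-D, and 0% for fenbuconazole minus 2,4-D, with 412 lower and 261 higher. The differences use DMSO-centred values, since each compound's arrays were normalized apart.

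The genes most like BNIP3L over the 27 treated groups were CCN2, a matricellular protein gene (r = 0.83), SPON2 (0.81), SLC2A3, a glucose transporter (0.79), CP, the copper carrier ceruloplasmin (0.79), and SLC13A3 (0.79), among 9886 genes brighter than the median. The genes least like it were CYP1A1, a cytochrome P450 (-0.87), MGC12916 (-0.86) and CYP24A1, the vitamin D 24-hydroxylase (-0.85). For TMEM45A the closest were CPB2 (0.77), PRPSAP1 (0.76), KANK1 (0.72), SLC1A2 (0.72) and SERPIND1 (0.72), and the farthest TNFRSF12A (-0.80), UTP20 (-0.73) and WDR4 (-0.73). None of these is one of the 9 listed genes. Among themselves the 9 genes correlated unevenly, with 26 of 36 pairs above 0, a median r of 0.17 and a range of -0.36 (VEGFA and EGLN3) to 0.71 (BNIP3L and ANKRD37). The share of all gene pairs above 0 was not counted. BNIP3L also correlated with BNIP3 (0.66), PFKFB4 (0.66) and TMEM45A (0.49). With NDRG1 (0.09), VEGFA (0.04), EGLN3 (-0.08) and ADM (-0.16) its r was near 0 or below. The 27 groups include the top dose of imazalil, the group that chose BNIP3L. There CCN2 (-0.40), SPON2 (-0.48) and SLC2A3 (-0.45) lay below DMSO and passed the threshold. CYP1A1 (3.01) and CYP24A1 (0.69) lay above DMSO and passed too, while CP (-0.23), SLC13A3 (-0.27) and MGC12916 (0.18) did not pass. The r values with BNIP3L may thus partly restate that contrast, and r without that group is not given. The groups also share DMSO arrays and normalization, so these values are descriptions.

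Further genes of the pathway showed few calls with imazalil at 10 µM, and the processing alternatives were run for these lists only in the slopes. The lists were made with earlier results of these data known, so calls within them are given as descriptions. Of 16 measured genes of glycolysis under HIF, 6 lay above DMSO and 10 below (median -0.04). Of these 16, 1 passed, against 0.106% of all genes called. This was SLC2A3, which fell (-0.45 ± 0.08, limma adjusted p = 0.00832). PFKFB3, a relative of PFKFB4, was highest at 0.39 ± 0.20 (adjusted p = 0.841). Of 23 further HIF-responsive genes 0 passed (3 at an unadjusted p under 0.05, all lower, against 3.26% of all genes, which holds for the next lists too), with IGFBP1, a secreted binding protein for insulin-like growth factors, lowest at -0.37 ± 0.16 (adjusted p = 0.794) and PLOD2, a collagen lysyl hydroxylase, highest at 0.12. Against the 3 lowest doses, where 0.228% of all genes were called, IGFBP1 fell by 0.62 ± 0.13 on the log2 scale (limma adjusted p = 0.0449). The oxygen sensors and HIF subunits had 0 of 8 past the threshold and 0 at an unadjusted p under 0.05, from VHL at -0.19 to EGLN1 at 0.21, with HIF1A at 0.02 ± 0.09.

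Of 10 measured mitophagy and autophagy genes 0 passed (1 at an unadjusted p under 0.05), with GABARAPL1, an LC3 relative, lowest at -0.37 ± 0.17 and OPTN, an autophagy receptor, highest at 0.17. Of 8 paralogs of the listed genes 0 passed against DMSO (1 at an unadjusted p under 0.05), with TMEM45B lowest at -0.27 ± 0.08 (adjusted p = 0.385). Against the 3 lowest doses, where 0.228% of all genes were called, TMEM45B fell by 0.34 ± 0.06 (limma adjusted p = 0.00654). With fenbuconazole and 2,4-D, limma called 0 genes of each of the 5 lists at 10 µM against DMSO, beside 0.0152% and 0% of all genes. At most 2 per list and direction had an unadjusted p under 0.05, and the share of all genes at that p is not given beside them. In the imazalil slopes below 10 µM, 7 of the 23 further HIF-responsive genes were lower at an unadjusted p under 0.05 (IGFBP1, INSIG2, LOX, MXI1, P4HA1, P4HA2 and PLOD2), against 3.43% of all genes, and 0 passed the adjustment (IGFBP1 and PLOD2, each adjusted p = 0.149). Without the 0.001 µM dose 4 of these 23 remained under that p (IGFBP1, INSIG2, P4HA1 and PLOD2), against 2.20% of all genes.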

How the data were processed

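The platform was the Affymetrix HT HG-U133+ PM array, with RNA from HepG2 cells. The authors deposited log2 intensities per probe set, normalized by RMA within each compound's set of 27 treated and 3 copied DMSO arrays (90 columns from 84 arrays). The submitters' processing notes name RMA and Partek without versions.

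Each gene was represented by its brightest single-symbol probe set (19774 genes). In limma 3.58.1 (R 4.3.3), a linear model with moderated variance was fitted to each set's 30 columns with 1 mean per group, to the 24 arrays below 10 µM for slopes, and to DMSO-centred values of 2 sets for differences between compounds. Tests were two-sided, adjusted by Benjamini-Hochberg over all genes, with a threshold of 0.05 and 95% intervals. Scripts were tested on simulated data. The precision was limited by 3 arrays per group. Alternatives covered the replicate block, variance model, filter, normalization, probe sets, array spread and left-out arrays. All listed genes were described, further genes by being past the threshold or extreme in their list, and likeness by Pearson correlation. The members and lists were chosen with earlier results of these data known. Deviations of same-numbered 10 µM and DMSO arrays correlated at r = 0.41, 0.31 and 0.16 in the 2,4-D set. They correlated at 0.39, 0.21 and 0.08 in the fenbuconazole set and -0.15, 0.06 and 0.15 in the imazalil set. The main fits used no replicate block, which was run as an alternative. Promoters came from RefSeq, GRCh38.p14.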

Additional observations from a re-analysis of the deposited data

Results flagged for a closer look

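The brightest PFKFB4 probe set lay on opposite sides of the DMSO mean with the fungicides at 10 µM, with no call for either. All 3 arrays lay below the DMSO mean with imazalil (5.74, 5.77 and 5.34, against 5.83, 5.99 and 5.60) and above it with fenbuconazole (5.96, 6.24 and 6.02, against 5.91, 5.99 and 5.58). The difference was -0.43 for imazalil minus fenbuconazole (95% interval -0.81 to -0.06) and did not pass in limma (adjusted p = 0.440 over all genes). Against the 3 lowest doses both lay below 0, imazalil at -0.53 ± 0.18 and fenbuconazole at -0.03 ± 0.11, so the opposite sides hold against DMSO alone. The arrays of either fungicide overlapped with their DMSO arrays. In the fenbuconazole and 2,4-D sets the DMSO mean of this probe set was the lowest group mean. The other, dim PFKFB4 probe set lay at -0.04, -0.02 and -0.11 from the DMSO mean with imazalil. With fenbuconazole it lay at -0.10, 0.01 and 0.47, so its arrays were not all on opposite sides.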

How the results depend on the processing

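Of 1818 values of single genes under the alternatives, 17 lost a call and 3 gained one, and 132 changed sign, in 68 of 162 comparisons of a gene. Of these, 131 were values whose reported 95% interval included 0, so that no direction was given by them. The count of 7 other genes past the threshold was 0 in every alternative run. The slope of NDRG1 with imazalil was 0.00102 without the 0.001 µM dose, the only sign change of a value whose interval excluded 0. The count of the 7 genes with a lower imazalil slope at an unadjusted p under 0.05, 5 as reported, was 1 to 5 without 1 replicate number or the replicate 2 array at 0.001 µM, 1 without the 0.001 µM dose and 3 without the 1 µM dose. The slope of TMEM45A with imazalil gained a call with a trended robust variance. BNIP3L at 10 µM imazalil passed in 5 of 17 alternatives. Both genes were chosen, or treated as chosen, by their values in these data, so their calls here are descriptions.

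The count of all genes at 10 µM fenbuconazole, 3 as reported, was 14 without dim genes, 9 with mean probe sets, 10 with a trended robust variance, 0 with the 6 arrays alone and 0 to 4 without 1 replicate. At 10 µM imazalil, 21 as reported, it was 36 with a trended robust variance, 2 with the 6 arrays alone and 2 to 20 without 1 replicate or array. With 2,4-D it was 0 throughout. Joint normalization without DMSO centring called 118, 193 and 122 genes for imazalil minus fenbuconazole, imazalil minus 2,4-D and fenbuconazole minus 2,4-D at 10 µM, against 8, 50 and 18 as reported. Over all alternatives the counts against the 3 lowest doses ran from 6 to 66 with imazalil and 1 to 30 with fenbuconazole, and those of imazalil slopes from 0 to 6. The cause of these changes was not tested.

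Same-numbered 10 µM and DMSO arrays deviated together in every pair (r over 0.1) with 2,4-D only. Over all groups, arrays of the same number were on average more alike than others in each set. The mean r between groups was 0.036 with fenbuconazole, 0.038 with imazalil and 0.044 with 2,4-D for the same number. For other numbers it was -0.018, -0.019 and -0.022. Deviations of the 10 µM and DMSO arrays of 1 number correlated at 0.39, 0.21 and 0.08 with fenbuconazole, -0.15, 0.06 and 0.15 with imazalil, and 0.41, 0.31 and 0.16 with 2,4-D, and 18, 17 and 25 of 30 arrays correlated best with their own number. The replicate block left the imazalil slope count at 5 of 7, kept the BNIP3L difference at -0.50 and called 1 gene of the further HIF-responsive list.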
